A study of Mus musculus with 16 samples.

Results

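Immediate early genes were followed in RNA-seq of the mouse dorsal raphe nucleus (DRN), a midline brainstem nucleus rich in serotonin neurons. The set was chosen by name and comprised 10 genes (Fos, Fosb, Jun, Junb, Egr1, Egr3, Arc, Npas4, Nr4a1 and Ier2). Of these, 8 were listed among the 14504 genes of the expression table. Fosb and Egr3 were not analysed here.

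The 16 libraries came from adult male C57BL/6 mice and fell into 6 groups, named by phenotype and injection. Control animals (con) had not been defeated and had been housed individually before the experiment. Stressed animals had gone through chronic social defeat for 30 days and had been divided by their behaviour into a passive coping (PS) and an active coping (AS) phenotype. Between defeats they lived beside an aggressive male of another strain, behind a partition, so housing differed along with defeat. Each animal received saline (sal) or the synthetic glucocorticoid dexamethasone (DEX, 2 mg/kg), and tissue was collected 6 h later, so that every animal had been handled and injected. For stressed animals the injection came on the day after the last defeat. There were 3 con sal, 3 con DEX, 2 PS sal, 3 PS DEX, 3 AS sal and 2 AS DEX libraries, and no group was untouched by injection. The study had left out DEX libraries of both stressed phenotypes with little serotonin marker RNA. Its methods still count more DRN libraries than these 16. Groups without such an exclusion were also smaller here than the number of replicates stated there, for a reason not given. Libraries are named by group and the animal number in the label.

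Immediate early genes are transcribed within minutes of neuronal firing, calcium entry or growth factor signalling, without new protein synthesis, through pre-existing factors such as CREB, SRF and the MEF2 proteins. Most of their RNAs decay quickly, so a level at one time reflects the recent past of the cells. Fos, Jun and Junb encode subunits of the AP-1 transcription factor. Egr1 is a zinc finger transcription factor, Npas4 a neuron-specific factor that responds selectively to calcium entry, and Nr4a1 an orphan nuclear receptor. Arc encodes a protein of the synapse that takes part in AMPA receptor removal, and Ier2 a nuclear protein. In the raphe and elsewhere in the brain these genes are widely used as markers of recent neuronal activity.

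The stretches just before the transcription start of Fos, Junb, Nr4a1 and Jun are shown because these genes either had the largest differences between stressed and control animals, or tracked Fos most closely, or, for Jun, hardly varied. The sequences are from RefSeq (GRCm38.p6), which had a promoter entry for 5 of the 8 listed genes, and run 5′ to 3′ along the gene, ending at the base before the start. Fos is on the plus strand at chr12:85473640-85473889, Junb on the minus strand at chr8:84978749-84978998, Nr4a1 on the plus strand at chr15:101266596-101266845 and Jun on the minus strand at chr4:95052223-95052472. The Nr4a1 window lies in an intron of the gene as annotated in GENCODE vM21, before an internal start. Capitals mark TGACG, the core of a cyclic AMP response element, read on either strand (CGTCA where it lies on the opposite one), and the TATA box TATAAA.
Fos: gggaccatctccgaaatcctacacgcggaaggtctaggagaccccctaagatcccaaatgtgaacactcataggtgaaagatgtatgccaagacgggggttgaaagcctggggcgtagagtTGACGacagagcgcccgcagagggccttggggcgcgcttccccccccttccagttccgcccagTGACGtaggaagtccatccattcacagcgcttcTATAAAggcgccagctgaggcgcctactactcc
Junb: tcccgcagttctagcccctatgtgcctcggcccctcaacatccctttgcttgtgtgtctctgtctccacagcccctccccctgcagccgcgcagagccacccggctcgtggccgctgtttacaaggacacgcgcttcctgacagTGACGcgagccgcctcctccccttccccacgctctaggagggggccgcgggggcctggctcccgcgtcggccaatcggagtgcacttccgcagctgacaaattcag
Nr4a1: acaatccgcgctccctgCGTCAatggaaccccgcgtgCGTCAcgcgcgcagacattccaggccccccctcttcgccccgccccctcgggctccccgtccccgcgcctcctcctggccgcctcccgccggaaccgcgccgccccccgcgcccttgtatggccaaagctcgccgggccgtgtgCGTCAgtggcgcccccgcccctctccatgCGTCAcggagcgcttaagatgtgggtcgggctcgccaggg
Jun: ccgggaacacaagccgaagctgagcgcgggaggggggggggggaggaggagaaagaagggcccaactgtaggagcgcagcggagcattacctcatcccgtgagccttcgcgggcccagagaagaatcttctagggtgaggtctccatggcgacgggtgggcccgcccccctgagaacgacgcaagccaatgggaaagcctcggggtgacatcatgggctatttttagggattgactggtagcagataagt

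TGACG occurred 2 times in the 250 bases of Fos, 1 time in Junb, 4 times in Nr4a1 and 0 times in Jun. The Npas4 window, not printed, held it 2 times. Of all 32851 promoter entries cut to the same length, 17.8% held at least 1. TATAAA was found in Fos, 33 to 28 bases before the start, and in 12.4% of all entries. None of the 5 windows held the full element TGACGTCA (1.55% of all entries), the serum response core of CC, 6 A or T letters and GG (1.47%), the AP-1 site TGANTCA (6.75%) or the glucocorticoid receptor core TGTTCT (16.1%), on either strand. TGACG is part of TGACGTCA, so the counts of the 2 motifs are not independent. Only exact letters within these 250 bases were searched, so variant sites and sites farther upstream were not counted.

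Values are normalized counts, that is, reads per gene divided by 1 size factor per library. Library totals ran from 38207157 to 62447298 reads, and the listed genes were covered by between 92 reads (the lowest value of Ier2) and 1712 reads (the highest of Jun). At its mean coverage, Ier2 had a counting SD of 0.11 on the log2 scale beside a spread within groups of 0.16, while for Npas4 the values were 0.09 and 0.57. Of the serotonin markers 8 of 8 were listed, with summed levels from 309481 to 473055 normalized counts. The study had already removed libraries low in serotonin marker RNA, so this is no separate check of the tissue. The library AS sal 40 stood apart for these genes. The mean deviation of the 8 genes from their average level was -0.68 on the log2 scale in that library and between -0.12 and 0.29 in the others. That library also held the largest share of its counts in 77 cytoplasmic ribosomal protein genes, 2.42% beside 1.12 to 1.81% elsewhere, and the highest summed level of 4 blood markers, 2185 beside 445 to 2034 normalized counts. In AS sal 40 the 7 microglial markers also summed highest (6842 beside 4200 to 5387), as did the serotonin, endothelial and mural markers. Its 4 GABA neuron markers summed lowest, at 49600 normalized counts. Where leaving it out moved a member's value by over 1.5 times, the value without it is given.

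Compared per kilobase of exon, Jun was the most abundant of the set, with a mean of 411 normalized counts per kb over the 16 libraries (SD 31.4). Junb followed at 168 (SD 47.1), then Egr1 at 143 (SD 36.5), Arc at 131 (SD 22.4), Nr4a1 at 113.8 (SD 25.6), Ier2 at 102.3 (SD 18.6), Fos at 85.8 (SD 31.9) and Npas4 at 69.6 (SD 26.5). Apart from Jun, neighbours in this order lay within 1 SD of each other. The genes also differed in how much they varied between animals. Jun ranged 1.28-fold between its lowest and highest library and Arc 1.73-fold. Npas4 ranged 5.15-fold, Fos 3.74-fold, Nr4a1 3.27-fold and Egr1 3.23-fold.

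**Figure D1:**
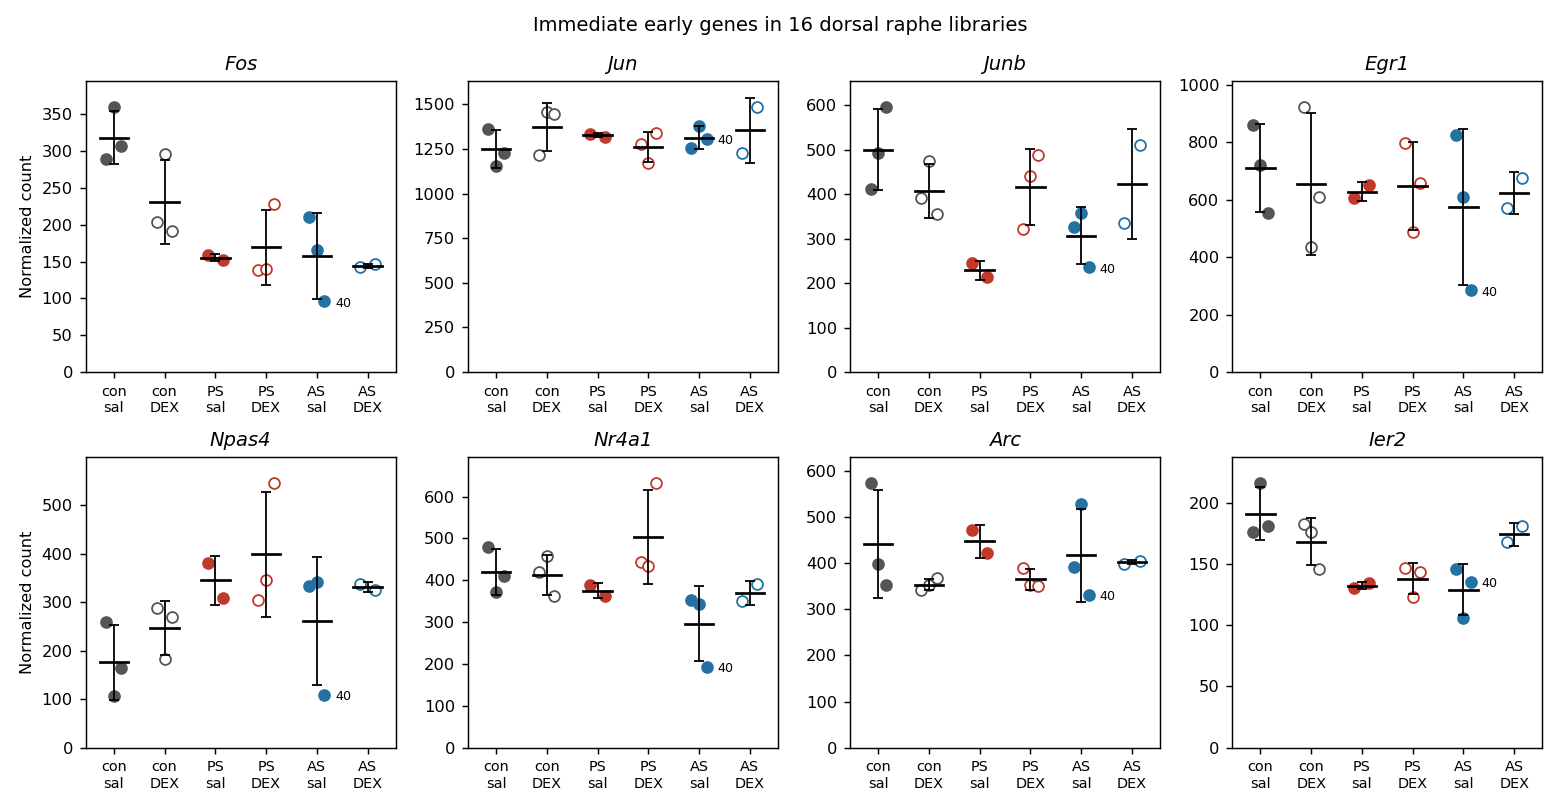
Normalized counts (vertical axes, from 0) of the 8 listed immediate early genes in the 6 groups, with 1 point per library (filled for saline, open for DEX), a bar at the group mean and error bars of 1 SD. All 3 control saline libraries lie above all 5 stressed saline libraries for Fos, Junb and Ier2, and the AS saline library 40 is marked.

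Levels of these genes after repeated defeat were examined by comparing the PS and AS saline libraries with the same 3 control saline libraries. Housing differed between these groups as well. Fos, Junb and Ier2 were lower in the stressed groups and Npas4 was higher in PS, but no gene of the table, these included, passed the adjusted threshold in the main test (limma, Benjamini-Hochberg adjusted p under 0.1).

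Fos stood at 289, 359 and 307 normalized counts in the control saline libraries, a mean of 319 ± 36.5 (SD, n = 3). It stood at 159 and 152 in PS sal 62 and 68 (mean 156 ± 4.43, SD, n = 2) and at 211, 165 and 96.1 in AS sal 8, 14 and 40 (mean 158 ± 57.9, SD, n = 3). No stressed library reached the lowest control. On the log2(normalized count + 1) scale the difference was -1.02 (SE 0.31) in PS (limma adjusted p = 0.571) and -1.08 (SE 0.28) in AS (adjusted p = 0.998), and the AS value was -0.76 without AS sal 40.

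Junb stood at 412, 493 and 595 normalized counts in the controls (mean 499.9 ± 91.5, SD, n = 3). It stood at 244 and 214 in PS (mean 229 ± 21.4, SD, n = 2) and at 326, 359 and 235 in AS (mean 307 ± 63.9, SD, n = 3). Again the groups did not overlap. The log2 difference was -1.11 (SE 0.25) in PS (limma adjusted p = 0.571), where 1 gene of the table had a smaller unadjusted value, and -0.71 (SE 0.23) in AS (adjusted p = 0.998), or -0.53 without AS sal 40.

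Ier2 stood at 176, 216 and 181 normalized counts in the controls (mean 191 ± 21.7, SD, n = 3). It stood at 130.5 and 134 in PS (mean 132 ± 2.54, SD, n = 2) and at 146, 106 and 135 in AS (mean 129 ± 20.8, SD, n = 3). All 5 stressed libraries were below the lowest control. The log2 difference was -0.52 (SE 0.20) in PS (limma adjusted p = 0.571) and -0.57 (SE 0.18) in AS (limma adjusted p = 0.998).

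With PS and AS combined against the controls under saline, a comparison added after the values were seen, the log2 difference was -1.05 for Fos (SE 0.25, 95% interval -1.59 to -0.51), -0.91 for Junb (SE 0.20, -1.35 to -0.47) and -0.55 for Ier2 (SE 0.16, -0.90 to -0.19). The limma adjusted p was 0.803 for each. All 5 stressed libraries were below all 3 controls for these 3 of the 8 genes, beside 0.938% of all 14504 genes. In limma 0 genes (0%) were called in this comparison, in PS or in AS alone, with 735, 1112 and 347 genes at an unadjusted p under 0.05. edgeR's quasi-likelihood test on the recovered reads called 0 genes in each of the 3 as well. DESeq2 on the same reads called Junb (adjusted p = 0.0157) and Fos (adjusted p = 0.0544) among 0.234% of genes when PS and AS were combined, and Junb, but no other member, in PS (log2 difference -1.12, adjusted p = 0.0960) among 0.0276%. The study had itself used DESeq2 at the same threshold and named Junb for stress in PS. The call in PS therefore repeats its result and is no separate evidence. In AS the DESeq2 fit called 11 genes, with no member among them. Leaving out any 1 of the 16 libraries kept the joint difference between -1.17 and -0.89 for Fos, between -1.04 and -0.78 for Junb and between -0.60 and -0.45 for Ier2, with no call in limma.

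Levels of other cells' RNA were set beside these differences. Fewer cells of a type and less RNA per cell cannot be told apart in bulk tissue. The serotonin markers Tph2 (log2 difference 0.02, SE 0.20) and Slc6a4 (0.01, SE 0.17) were near 0 in stressed against control saline libraries. In limma 0 of the 8 serotonin markers and 0 of the 5 general neuron markers were called, beside 0% of all genes. With no gene called at all, these counts and those below do not show that the markers were unchanged. Of other cell types, the 8 ependymal markers were all higher in the stressed saline libraries (median log2 difference 0.61, none called), with a summed level of 3183 to 5647 normalized counts in con sal, 3341 to 7750.0 in PS sal and 3961 to 10289 in AS sal. The 5 dopamine neuron markers were all lower (median -0.50, none called), with sums of 9326 to 14765 in con sal, 3735 to 12294 in PS sal and 7366 to 12620 in AS sal. Among these markers, Nr4a2 is also an early transcription factor and is counted in that list below. The 6 mural and the 3 oligodendrocyte precursor markers were all higher as well (medians 0.21 and 0.20, none called), with sums of 4033 to 6034 and 4282 to 5781 in con sal, 4392 to 6035 and 5187 to 5553 in PS sal and 5507 to 6439 and 4545 to 6232 in AS sal. Of the 4 listed choroid plexus markers 2 were higher and 2 lower (median -0.59, none called), with sums of 762 to 1546 in con sal, 265 to 1020 in PS sal and 644 to 1012 in AS sal. The 4 listed blood markers were all lower in the stressed saline libraries (median log2 difference -0.60, none called), and their summed level ran from 989 to 2034 normalized counts in con sal, from 645 to 684 in PS sal and from 681 to 2185 in AS sal. Of all these markers 1, of choroid plexus, was at 0 in 1 library, and the part of these cells in the result was not tested. With the share of ribosomal protein genes of each library as a covariate, an alternative added after the values were seen, the joint difference was -1.13 for Fos, -0.91 for Junb and -0.53 for Ier2. For Fos and Junb the slope of this covariate leaned on AS sal 40. Within groups, r with the share was -0.34 for Fos and -0.01 for Junb, but 0.36 and 0.60 without that library. The mean share was 1.60% in con sal, 1.19% in PS sal and 1.68% in AS sal. Its part in these differences was not tested further.

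**Figure D2:**
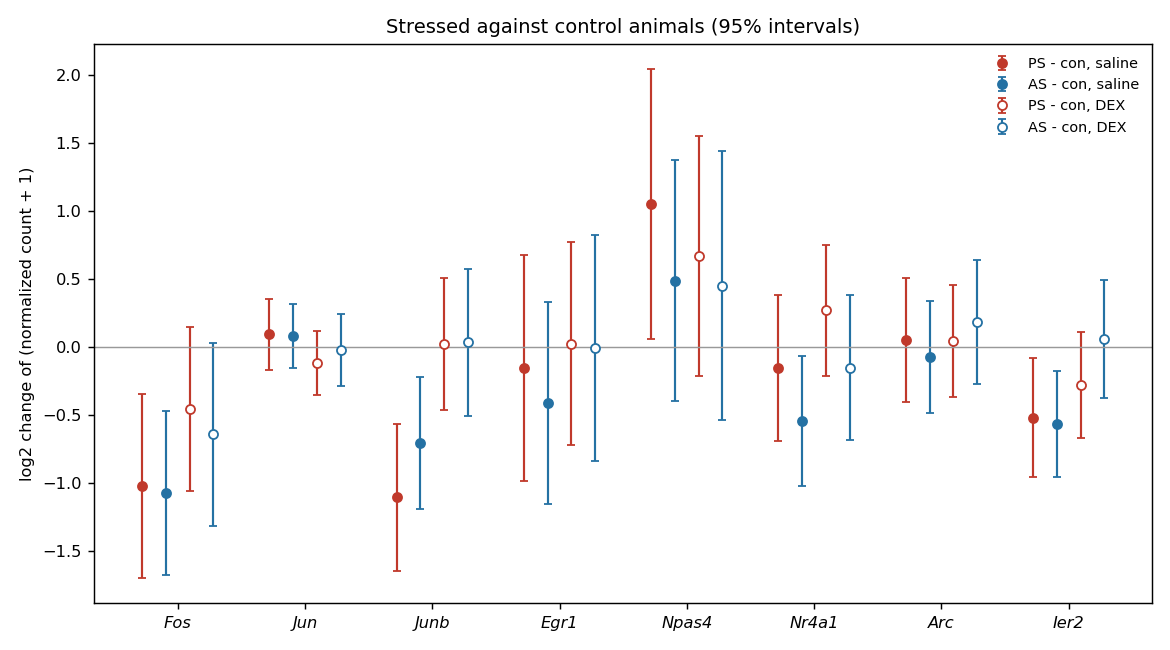
Log2 difference of (normalized count + 1) between stressed and control libraries (vertical axis) for each gene, for PS (red) and AS (blue) under saline (filled) and DEX (open), with 95% intervals. Under saline the intervals of Fos, Junb and Ier2 lie below 0 in both phenotypes, and under DEX the estimates of Junb are 0.02 and 0.03.

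Npas4 went the other way. It stood at 259, 106 and 164 normalized counts in con sal (mean 176 ± 77.1, SD, n = 3), at 381 and 309 in PS sal (mean 345 ± 50.6, SD, n = 2) and at 334, 341 and 109 in AS sal (mean 261 ± 132, SD, n = 3). Both PS libraries were above all controls, beside 14.3% of all genes. In AS, library 40 was close to the lowest control while the other AS libraries were above all of the controls. The log2 difference was 1.05 (SE 0.46) in PS (limma adjusted p = 0.571) and 0.49 (SE 0.41) in AS (limma adjusted p = 0.998). Leaving out AS sal 40 made the AS difference 1.03, and leaving out the con sal library at 106 made it 0.17. With the ribosomal protein share as a covariate the PS difference was 0.43 (SE 0.31) in place of 1.05. That share was 1.60% ± 0.327 in con sal (SD, n = 3) and 1.19% ± 0.0487 in PS sal (SD, n = 2) and was thus lower in the group in which Npas4 was higher. Its part in the difference was not tested further.

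Nr4a1 stood at 479, 372 and 409 normalized counts in con sal (mean 420.2 ± 54.7, SD, n = 3), at 388 and 363 in PS sal (mean 375 ± 17.1, SD, n = 2) and at 353, 344 and 193 in AS sal (mean 296 ± 89.6, SD, n = 3). The AS libraries were all below the controls, beside 2.11% of all genes. The log2 difference in AS was -0.55 (SE 0.22, limma adjusted p = 0.998), or -0.26 without AS sal 40. In PS the difference was -0.15 (SE 0.25).

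The remaining members overlapped between stressed and control animals under saline. Egr1 stood at 860, 719 and 552 normalized counts in con sal, at 604 and 652 in PS sal and at 825, 610 and 285 in AS sal. Its log2 difference was -0.16 (SE 0.39) in PS and -0.42 (SE 0.35) in AS, and the AS value was 0.02 without AS sal 40. With the ribosomal protein share as a covariate the values were -0.73 (SE 0.20; limma adjusted p = 0.961) in PS and -0.39 (SE 0.17) in AS. Arc stood at 573, 397 and 351 in con sal, at 472 and 422 in PS sal and at 391, 527 and 331 in AS sal. Its log2 difference was 0.05 (SE 0.21) in PS and -0.07 (SE 0.19) in AS, the latter being 0.077 without AS sal 40. Jun was the most even, at 1363, 1154 and 1226 in con sal, at 1335 and 1318 in PS sal and at 1255, 1379 and 1307 in AS sal. Its log2 difference was 0.09 in PS (95% interval -0.17 to 0.35) and 0.08 in AS (-0.16 to 0.31).

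In PS, 3 of the 8 genes had both libraries below all controls and 1 had both above, beside 14.2% and 14.3% of all genes. In AS, 4 of the 8 had all libraries below the controls, beside 2.11%. The PS and AS comparisons share their controls, so they are not independent of each other. Between AS and PS under saline 0% of genes were called, and the log2 differences of the 8 genes lay between -0.57 (Npas4, which was -0.024 without AS sal 40) and 0.40 (Junb).

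The same comparison was made among the DEX libraries, which share no animal with the saline ones. Fos stood at 204, 296 and 192 normalized counts in con DEX (mean 231 ± 57.0, SD, n = 3), at 139, 140 and 228 in PS DEX 6, 34 and 64 (mean 169 ± 51.1, SD, n = 3) and at 142 and 147 in AS DEX 38 and 42 (mean 144 ± 2.89, SD, n = 2). The stressed libraries were mostly lower, with PS DEX 64 inside the control range. The log2 difference was -0.46 (SE 0.28) in PS and -0.64 (SE 0.31) in AS, with adjusted p = 0.9999 and 0.990 in limma. The PS value was -0.27 without the con DEX library at 296 and -0.69 without PS DEX 64.

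Junb differed little between stressed and control animals after DEX. It stood at 390, 475 and 356 normalized counts in con DEX (mean 407 ± 61.5, SD, n = 3), at 322, 441 and 487 in PS DEX (mean 417 ± 85.5, SD, n = 3) and at 335 and 509 in AS DEX (mean 422 ± 123, SD, n = 2). The log2 difference was 0.02 (95% interval -0.46 to 0.51) in PS and 0.03 (-0.51 to 0.57) in AS. Ier2 stood at 182, 176 and 146 in con DEX, at 147, 123 and 144 in PS DEX and at 168 and 181 in AS DEX, with log2 differences of -0.28 (SE 0.18) and 0.06 (SE 0.20).

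Npas4 stood at 288, 184 and 269.9 normalized counts in con DEX (mean 247 ± 55.8, SD, n = 3), at 305, 346 and 545 in PS DEX (mean 399 ± 128, SD, n = 3) and at 338 and 325 in AS DEX (mean 331 ± 9.82, SD, n = 2). All 5 stressed libraries were above all 3 controls, beside 1.88% of all genes. The log2 difference was 0.67 (SE 0.41) in PS, where 3.96% of genes had all libraries above the controls, and 0.45 (SE 0.46) in AS, where 15.4% did. The PS value was 0.42 without PS DEX 64 and the AS value 0.25 without the con DEX library at 184. The ribosomal protein share was 1.34% ± 0.254 in con DEX (SD, n = 3), 1.25% ± 0.141 in PS DEX (SD, n = 3) and 1.25% ± 0.0634 in AS DEX (SD, n = 2). In AS, Arc was above the controls as well (398 and 404 against 342, 352 and 367) and Fos was below them, beside 14.9% of genes. Of the remaining members, Egr1 stood at 920, 434 and 608 in con DEX, at 795, 489 and 656 in PS DEX and at 570 and 674 in AS DEX. Arc in PS DEX stood at 390.1, 352 and 351. Nr4a1 stood at 419, 458 and 362 in con DEX, at 443, 433 and 632 in PS DEX and at 349.5 and 390.4 in AS DEX, and Jun at 1215, 1459 and 1444, at 1277, 1171 and 1339 and at 1224 and 1482. Their log2 differences from the DEX controls lay between -0.15 and 0.27. In limma 0% of genes were called in PS, 0.00689% in AS, 0% with both phenotypes together and 0% between AS and PS after DEX, with no member among them.

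Averaged over saline and DEX and over both phenotypes, Fos had a log2 difference of -0.80 (SE 0.18, 95% interval -1.19 to -0.42) between stressed and control animals, with a limma adjusted p of 0.748. Junb had -0.44 (SE 0.14), Ier2 -0.33 (SE 0.12) and Npas4 0.66 (SE 0.26), each with that same adjusted p. Npas4 varied with the ribosomal protein share within groups (r = -0.83), and an averaged difference adjusted for that share is not given here. In limma 0 genes (0%) were called, with 616 at an unadjusted p under 0.05. DESeq2 called Fos (log2 difference -0.79, adjusted p = 0.0123) among 0.248% of genes, and edgeR called 9 genes with no member among them. Without any 1 library the limma estimate for Fos stayed between -0.86 and -0.70.

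DEX activates the glucocorticoid receptor, and its known targets moved strongly in these libraries. Of 12 glucocorticoid target genes, a list chosen with earlier results of these data known, 9 rose in controls, 8 in PS and 7 in AS. In the average over the 3 phenotypes 11 rose. Fkbp5, a co-chaperone of the receptor, rose by 2.15 (SE 0.06) on the log2 scale in that average, Tsc22d3, the anti-inflammatory protein GILZ, by 0.79 (SE 0.09) and the transcription factor Zbtb16 by 2.17 (SE 0.11), with adjusted p = 7.70e-11, 0.000194 and 6.46e-08 in limma. Of the 8 immediate early genes, 0 were called in any DEX comparison, beside 1.26% of all genes in controls, 0.703% in PS, 0.689% for AS and 4.31% when averaged over phenotypes.

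In controls no member had all DEX libraries above or below all saline libraries, beside 8.51% and 7.43% of genes. Fos was 319 under saline and 231 under DEX on average, a log2 difference of -0.48 (SE 0.28; limma adjusted p = 0.506), and Npas4 differed by 0.55 (SE 0.41), or by 0.23 without the con sal library at 106 and 0.87 without that at 259. In PS, Junb stood at 244 and 214 under saline and at 322, 441 and 487 under DEX, with no overlap and a log2 difference of 0.84 (SE 0.25, 95% interval 0.30 to 1.38; limma adjusted p = 0.350). Nr4a1 in PS was higher too (388 and 363 against 443, 433 and 632; log2 difference 0.40, SE 0.25, and 0.22 without PS DEX 64), beside 11.2% of genes above, and Arc lower (472 and 422 against 390.1, 352 and 351; -0.29, SE 0.21), beside 10.1% below. In AS, Ier2 stood at 146, 106 and 135 under saline and at 168 and 181 under DEX, a log2 difference of 0.44 (SE 0.20; limma adjusted p = 0.528), beside 15.1% of genes above. The other DEX differences in AS were not called and leaned on AS sal 40 for several members: leaving it out took Junb from 0.45 to 0.27, Npas4 from 0.52 to -0.026, Nr4a1 from 0.37 to 0.086, Egr1 from 0.24 to -0.20, Fos from -0.052 to -0.37 and Arc from -0.028 to -0.18. Averaged over phenotypes, Junb differed by 0.33 (SE 0.14; limma adjusted p = 0.303), Arc by -0.20 (SE 0.12; -0.13 without the con sal library at 573), Nr4a1 by 0.25 (SE 0.14; 0.15 without AS sal 40) and Jun by 0.03 (95% interval -0.11 to 0.18).

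Some of these calls depended on the test. DESeq2 called Junb in PS (log2 difference 0.86, adjusted p = 0.0978) among 1.34% of genes. Limma with a weight per library called Junb in PS (0.90, adjusted p = 0.0170) among 3.65%, Ier2 in AS (0.65, adjusted p = 0.0319) among 9.67% and Arc in the average over phenotypes (-0.34, adjusted p = 0.0478) among 9.16%. The iteration that sets these weights stopped before it converged.

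**Figure D3:**
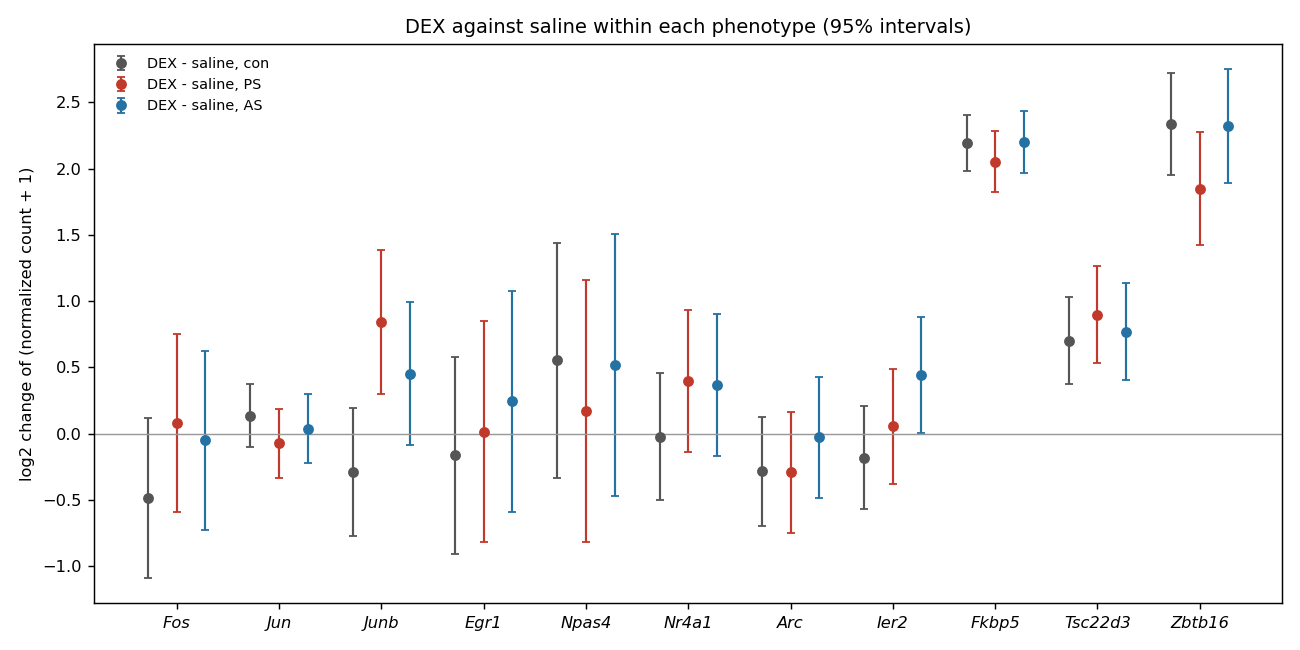
Log2 difference of (normalized count + 1) between DEX and saline libraries (vertical axis) in controls (grey), PS (red) and AS (blue), with 95% intervals, for the 8 immediate early genes and 3 glucocorticoid targets. Fkbp5, Tsc22d3 and Zbtb16 are above 0 in every phenotype, while among the immediate early genes the intervals of Junb in PS and of Ier2 in AS are the ones that leave out 0.

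Whether the DEX effect differed between phenotypes was tested as an interaction. Junb had the largest difference. Its DEX effect was 1.13 higher in PS than in controls on the log2 scale (SE 0.34, 95% interval 0.40 to 1.86; limma adjusted p = 0.9996) and 0.74 higher in AS (SE 0.34; adjusted p = 0.941). Ier2 differed by 0.63 in AS (SE 0.27; limma adjusted p = 0.941). The AS value for Junb was 0.44 without AS DEX 42 and 1.04 without AS DEX 38. With PS and AS together the difference was 0.94 for Junb (SE 0.29, limma adjusted p = 0.9999). Between AS and PS the differences of the 8 genes lay between -0.39 (Junb, which was -0.69 without AS DEX 42 and -0.088 without AS DEX 38) and 0.39 (Ier2). In limma 0% of genes were called in each of these comparisons. The control and stressed saline libraries enter both the lower Junb of stressed saline animals and this interaction. The stressed saline libraries enter the DEX effects in PS and AS as well, so these results are not independent of each other.

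Other genes of the response were taken from lists of further early transcription factors, early effectors and upstream regulators. Of 18 listed transcription factors, 2 rose and 2 fell with DEX in the average over phenotypes, in which 4.31% of all genes were called (403 higher and 222 lower). Maff, a small Maf protein, rose by 1.07 (SE 0.16, limma adjusted p = 0.00157). Its log2 difference was 0.95 for controls, 1.35 for PS (called) and 0.90 for AS, and the DEX effect in PS minus that in controls was 0.40 (SE 0.40). The clock gene Per1, itself a glucocorticoid target, rose by 0.54 (SE 0.11, limma adjusted p = 0.0105). The circadian repressor Bhlhe40 fell by 0.26 (SE 0.07) and Ier5 fell by 0.34 (SE 0.09). Of 20 listed effectors, the kinase Sgk1, also a glucocorticoid target, and the small GTPase Arl4d rose, by 1.21 (SE 0.08) and 1.40 (SE 0.20), and none fell. Of 23 upstream regulators 0 were called, with Crebbp (0.42, SE 0.13), Ep300 (0.37, SE 0.15) and Mapk3 (-0.21, SE 0.08) having the smallest p. Gadd45g, the next effector, had a log2 difference of 0.41 (SE 0.13) and was not called.

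No gene of these lists was called in stressed against control animals. In limma 0.00689% of all genes were called in AS against control under DEX and 0% in every other such comparison. The absence of calls therefore does not set these lists apart. The smallest p-values in the average belonged to Per2 (0.33, SE 0.13), Per1 (0.25, SE 0.11) and Klf6 (-0.13, SE 0.09) among the transcription factors, to Arl4d (0.43, SE 0.20), Sgk1 (0.18, SE 0.09) and Rheb (-0.15, SE 0.07) among the effectors, and to Ep300 (0.38, SE 0.15), Crtc3 (0.30, SE 0.13) and Crtc2 (0.26, SE 0.11) among the upstream regulators. The median log2 difference under saline, PS and AS together, was -0.32 for the 8 members, -0.10 for the other transcription factors, -0.08 for the effectors, 0.12 for the upstream regulators and 0.01 for all genes. Beside the same 4.31%, 3 of 7 microglial markers fell with DEX in the average (Cx3cr1 fell by 0.83, SE 0.09), as did 2 of 6 oligodendrocyte markers (Mog and Cnp) and 1 of 8 serotonin markers (the transporter Slc22a3 fell by 0.51, SE 0.12), while 1 of 3 oligodendrocyte precursor markers rose (Pdgfra, by 0.30, SE 0.06). Their part in the DEX differences of the members was not tested.

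Covariation within groups was described after subtracting each group's mean, over 16 libraries that share group means, depth scaling and tissue. Of the 28 pairs of members 21 had r above 0, with a median r of 0.29. Over all pairs of genes in the table the median was near 0 (-0.0021), and 28.4% of pairs exceeded 0.29. With 15 libraries, leaving out AS sal 40, 18 pairs were above 0 and the median was 0.19. Nr4a1 had the highest median r with the others (0.59) and Ier2 the lowest (-0.05).

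Fos was followed most closely by Nr4a1 (Pearson r = 0.83, permutation p = 0.0346; Spearman rho = 0.73, p = 0.0408) and Junb (r = 0.66, permutation p = 0.0269; rho = 0.63, p = 0.0245), with libraries permuted within groups in 100000 resamples and two-sided p. Without AS sal 40 and AS sal 8, the 2 libraries farthest from the median of Fos, r was 0.67 with Nr4a1 and 0.59 with Junb. For the other 5 members r with Fos lay between 0.13 and 0.47, with permutation p of 0.302 or more, and for Npas4 (r = 0.47) it became 0.01 without those libraries. Adjusted over all 14503 other genes in limma, 0 genes (0%) varied with Fos (405 at an unadjusted p under 0.05), and Nr4a1 and Junb each had an adjusted p of 0.887.

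**Figure D4:**
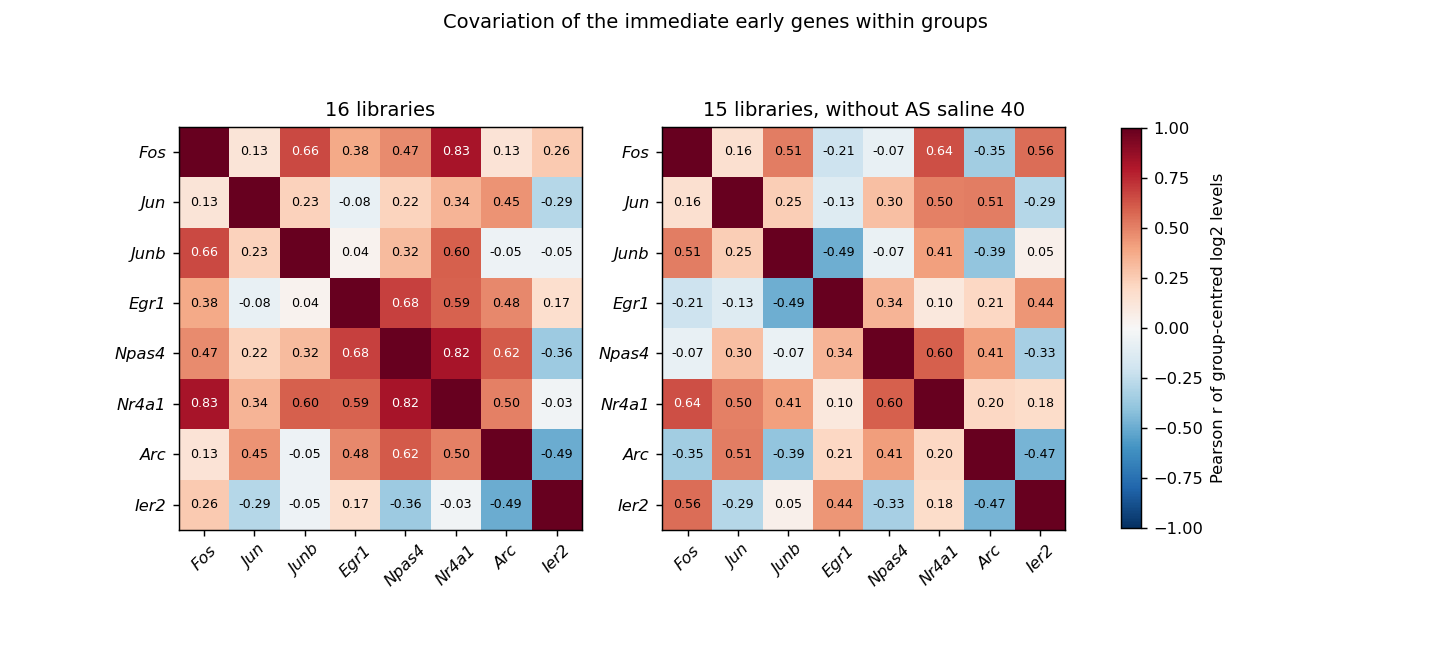
Pearson r of group-centred log2 levels for every pair of the 8 genes, over all 16 libraries (left) and over 15 without AS saline 40 (right), on a colour scale from -1 to 1. Fos, Junb and Nr4a1 keep positive values in both panels, and Egr1 with Fos goes from 0.38 to -0.21.

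Npas4 and Egr1 varied with a large part of the table. In the same fit with Npas4 as the covariate, added after the values were seen, 35.7% of 14503 genes were called (2720 higher and 2453 lower with Npas4), and with Egr1 34.3%. With Nr4a1 it was 0%, although 3537 genes were at an unadjusted p under 0.05. When AS sal 40 was left out, 9.03% were called with Npas4 and 0.131% with Egr1. The genes called first with Npas4 included the nuclear long noncoding RNAs Miat and Neat1, both higher, and those called first with Egr1 included the ribosomal protein genes Rpl26 and Rpl34, both lower. The r of the members with the share of ribosomal protein genes, within groups, was -0.91 for Egr1, -0.83 for Npas4, -0.66 for Arc and -0.64 for Nr4a1, and it was -0.34 for Fos, -0.17 for Jun, -0.01 for Junb and 0.14 for Ier2. Over the other 15 libraries it was -0.81 for Egr1, -0.62 for Npas4, -0.50 for Arc, -0.15 for Nr4a1, 0.36 for Fos and 0.60 for Junb. With that share taken out, the median r of the 28 pairs was 0.14 and that of Npas4 and Nr4a1 was 0.68 in place of 0.82.

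**Figure D5:**
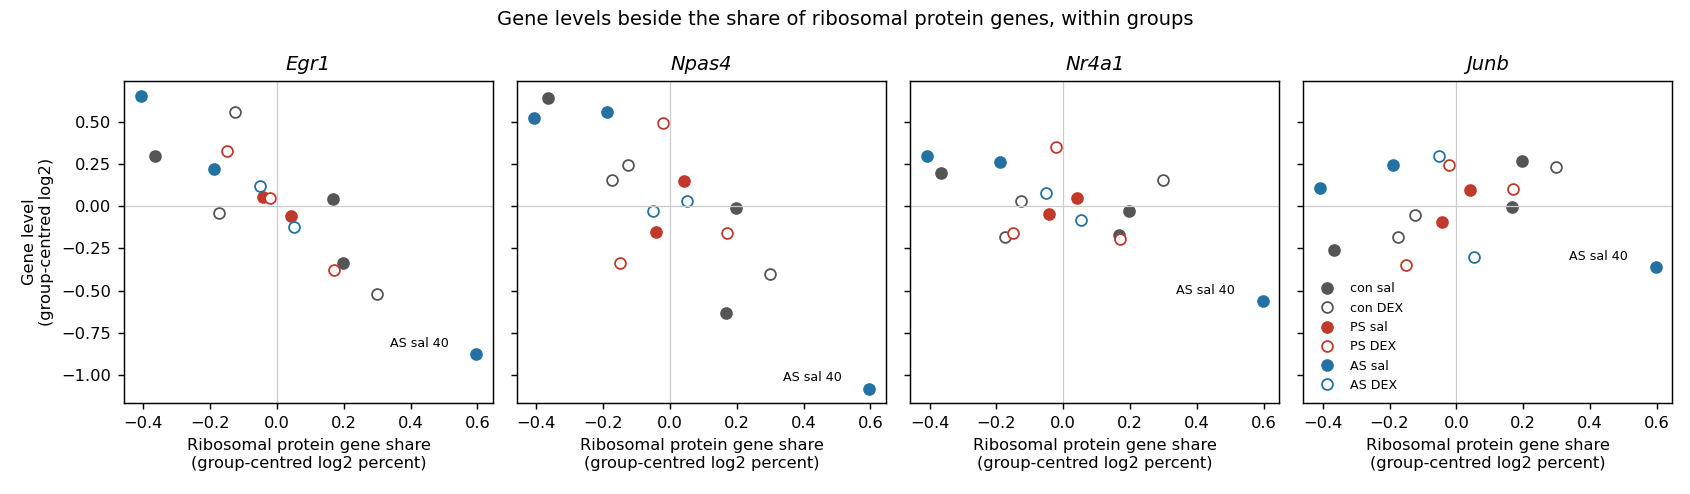
Group-centred log2 level (vertical axes) of Egr1, Npas4, Nr4a1 and Junb against the group-centred log2 share of counts in 77 ribosomal protein genes (horizontal axes), with 1 point per library. Egr1 and Npas4 decline along the share (r = -0.91 and -0.83), and the AS saline library 40 lies at the lower right in every panel.

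The genes most like the mean of the 8 members within groups, among those with a mean of at least 100 normalized counts, were Dlk2 (r = 0.94), Mov10 (0.93), Setd1a (0.93), Dgkd (0.92), Urb1 (0.92), Ncapd2 (0.92), Otx1 (0.92), 5031439G07Rik (0.92), Rtel1 (0.92) and Col6a3 (0.91), and the least alike were Coq9 (-0.94), Mrps12 (-0.94) and B9d2 (-0.95), over 16 libraries. Without AS sal 40 these 10 had r between 0.69 and 0.83, Coq9, Mrps12 and B9d2 had -0.77, -0.83 and -0.88, and 0 of them were among the 10 genes then most alike, which began with Sprtn (0.89). Among the further early transcription factors and effectors, those closest were Nr4a2 (r = 0.83), Per1 (0.83) and Per2 (0.81), which had 0.60, 0.58 and 0.56 without AS sal 40. Nr4a2 was also used here as a dopamine neuron marker. Plk2 (-0.86), Rheb (-0.84) and Scg2 (-0.82) went the other way, with -0.68, -0.68 and -0.71 without it.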

How the data were processed

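RNA-seq of 16 mouse DRN samples was analysed. Per the labels and the methods, fastp (0.20.1) was used for trimming, HISAT2 (2.2.1) for alignment to GRCm38 (mm10), featureCounts (Subread 2.0) for gene counts and DESeq2 (1.36.0) for normalization. The signal deposited by the authors is a table of normalized counts. Multiplied by each library's size factor, 100% of values were whole reads within 0.02, and 973 of 14504 genes were under 10 reads in a library. Whether counting used strand is not given in the sources used here. The deposited tables of log2 fold changes and p-values by the authors were not used.

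Samples were grouped by their labels. In limma 3.58.1, 6 group means were estimated from log2(normalized count + 1) (R 4.3.3; eBayes with trend, 10 residual and 3.88 prior degrees of freedom), adjusted over all genes by Benjamini-Hochberg and called under 0.1. This scale understates changes of low genes. edgeR 4.0.16 and DESeq2 1.42.0 were run on the recovered reads. Exon lengths were from GENCODE vM21. Scripts were tested on simulated data. Cage of origin and batch are not given per animal in the sources used here. The p-values treat the libraries within a group as independent, which was not checked. The members and lists were chosen with earlier results of these data known. Named genes were all members, called genes and the 3 smallest p of each further list in both averages, and the 10 most and 3 least alike genes.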

Additional observations from a re-analysis of the deposited data

How the results depend on the processing

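No paired analysis was possible because the animal numbers in the labels differ between groups. The number of members called was recomputed for 17 comparisons under 13 other settings and 16 leave-one-library-out fits, and 486 of 493 counts equalled the 0 of limma. The exceptions were 1 call each with library weights for DEX in PS, DEX in AS and DEX averaged over phenotypes, 1 each with DESeq2 for DEX in PS, PS against control under saline and the stress average, and 2 with DESeq2 for PS and AS together under saline, as given above. No call appeared when any library was left out (0 to 0 members in each comparison). Of 3944 values of single members under these settings, 173 changed sign (72 of them under the settings other than leaving out a library), and none of the 173 was called before or after the change. They belonged to 55 of the member differences, of which the farthest from 0 lay 1.23 SE away, so no direction is claimed for these. A further 8 kept their sign and were called under the setting. Of the sign changes 68 concerned a difference printed or plotted here. With library weights these turned: Fos to -0.067, Egr1 to -0.21 and Ier2 to -0.040 for DEX in PS, Jun to -0.014 and Egr1 to -0.0048 for DEX in AS, Jun to -0.030 for DEX averaged over phenotypes, Arc to -0.037 for PS against control under saline, Arc to 0.13 for AS against control under saline, Egr1 to -0.39 for PS against control under DEX, Jun to 0.016 for AS against control under DEX. With quantile normalization these turned: Egr1 to -0.028 and Ier2 to -0.023 for DEX in PS, Junb to -0.018, Egr1 to -0.028 and Arc to -0.020 for PS against control under DEX, Junb to -0.030 for AS against control under DEX. With the serotonin marker level as a covariate these turned: Egr1 to -0.21 and Npas4 to -0.10 for DEX in PS, Egr1 to -0.18 for DEX in AS, Junb to -0.0030, Egr1 to -0.22 and Arc to -0.0029 for PS against control under DEX, Junb to -0.0034 for AS against control under DEX. With the ribosomal share as a covariate these turned: Egr1 to -0.27 and Npas4 to -0.035 for DEX in AS, Arc to -0.15 for PS against control under saline, Npas4 to 0.084 for AS against PS under saline, Egr1 to -0.11 and Arc to -0.0044 for PS against control under DEX. With edgeR these turned: Egr1 to -0.0095 for PS against control under DEX. With DESeq2 these turned: Egr1 to -0.015 for PS against control under DEX. When 1 library was left out, for DEX in controls, Egr1 ran from -0.44 to 0.097 and Nr4a1 ran from -0.11 to 0.075. For DEX in PS, Fos ran from -0.15 to 0.20, Egr1 ran from -0.15 to 0.20 and Npas4 ran from -0.078 to 0.34. For DEX in AS, Fos ran from -0.37 to 0.19, Jun ran from -0.10 to 0.17, Egr1 ran from -0.20 to 0.57, Arc ran from -0.18 to 0.16 and Npas4 ran from -0.026 to 0.79. For DEX averaged over phenotypes, Jun ran from -0.013 to 0.079. For PS against control under saline, Arc ran from -0.095 to 0.26. For AS against control under saline, Egr1 ran from -0.74 to 0.022 and Arc ran from -0.26 to 0.13. For PS against control under DEX, Junb ran from -0.10 to 0.20, Egr1 ran from -0.24 to 0.30 and Arc ran from -0.0070 to 0.070. For AS against control under DEX, Jun ran from -0.16 to 0.12, Junb ran from -0.27 to 0.33, Egr1 ran from -0.27 to 0.27 and Ier2 ran from -0.041 to 0.12. The cause was not tested. The median r of the member pairs was 0.14 with the ribosomal share taken out, and ran from 0.19 to 0.36 when 1 library was left out. The number of genes that varied with Fos was 0 under every setting tried. Groups of 2 or 3 libraries limit the precision, and the lowest-covered gene, Ier2, had 92 reads in 1 library.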

Other observations

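The spread of the 8 genes within groups was set beside that of genes of like mean level (within 0.5 on the log2 scale). Egr1 was at the 94.8th percentile of 2129 such genes and Npas4 at the 88.8th of 1352. Jun was at the 18.8th of 2625 and Ier2 at the 2.14th of 935. Junb, Nr4a1 and Fos lay between the 62.6th and the 64.3rd percentile, and Arc at the 46.2nd.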
